A study of Mus musculus with 8 samples.

Results

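A set of 9 genes was chosen because each was high in the wild-type libraries of 6 months and low in every other group: Cytl1, Adamts19, Lgr5, Crhr1, Syt10, Cntnap4, Cpne4, Ablim3 and Dnah11. They were picked by name from 55573 gene IDs, with earlier results of the same data in view, so their excess in that group is a description and carries no test. All 9 passed the filter on low counts, as did 18205 genes in all. Without the wild-type libraries of 6 months 6 of the 9 would pass it, and Cytl1, Adamts19 and Cntnap4 would not.

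RNA-seq was carried out on cortical cells sorted for tdTomato, a red fluorescent reporter, from mice of 6 and 18 months that carried Cre recombinase under the parvalbumin gene. All groups carry PV-Cre and tdTomato on a C57BL/6 background. In WT mice (PV-Cre/tdTomato/Dnmt1 wild-type) the DNA methyltransferase gene Dnmt1 is intact, and in KO mice (PV-Cre/tdTomato/Dnmt1 loxP2) loxP sites surround its exons 4 and 5. The floxed stock is B6;129Sv-Dnmt1tm4Jae/J, and Cre acts in parvalbumin cells from the time the gene is active. The design gives 2 technical replicates for each of the 4 groups, named WT 6 mo, KO 6 mo, WT 18 mo and KO 18 mo after genotype and age, with cells pooled over 6 WT and 6 KO mice and the RNA taken from 1 hemisphere of each. Any p-value below measures how far such libraries spread, possibly for technical reasons, and says nothing of the variation among animals. The cortical hemispheres were dissected, and the sources used here do not say whether the olfactory bulb stayed attached.

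The libraries held 6008175 to 13551218 counts. Both WT libraries of 6 months stood apart from the rest, with Pearson correlations of log2 CPM of 0.917 to 0.962 with the other groups, against 0.968 to 0.981 between the other groups. Parvalbumin itself (Pvalb), which defines the labelled cell type, had 6 reads over all 8 libraries. Markers of glia dominated, and they differed between groups: the summed level of 10 oligodendrocyte genes was 13734 to 13762 CPM in WT 6 mo, 29889 to 30703 in KO 6 mo, 40116 to 40140 in WT 18 mo and 27148 to 27545 in KO 18 mo. Summed levels of 10 astrocyte genes were 11188 to 11223, 6815 to 6846, 3875 to 3909 and 8406 to 8458 CPM in the same order. Dnmt1 counts were 101 ± 4.03 CPM in WT 6 mo and 76.2 ± 1.39 in KO 6 mo, and 80.9 ± 0.217 and 75.4 ± 1.64 at 18 months (SD, n = 2). A count over the whole gene does not isolate the deleted exons. The noncoding gene Gm26917 held 9.63% of the counts in WT 6 mo, 4.58% in KO 6 mo, 2.88% in WT 18 mo and 1.74% in KO 18 mo, and its part in the results was not tested. In bulk samples of this kind, fewer cells of a type and less RNA per cell cannot be told apart.

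The 9 genes belong to different protein families. Cytl1 encodes a small secreted cytokine-like protein and Adamts19 a secreted metalloprotease of the ADAMTS family. Lgr5 is a receptor for R-spondins, secreted proteins that strengthen Wnt signalling, and Crhr1 is the main receptor for corticotropin-releasing hormone, a stress peptide. Syt10 is a synaptotagmin, a calcium sensor for vesicle release best known from neurons of the olfactory bulb, and Cntnap4 is an adhesion protein of the neurexin family found at synapses of interneurons. Cpne4 is a copine, a protein that binds membranes when calcium rises. Ablim3 is an actin-binding LIM protein, and Dnah11 is a heavy chain of the dynein that drives motile cilia. The granule and periglomerular neurons of the olfactory bulb, which are replaced through life from the subventricular zone, use GABA and are recognised by factors such as Sp8, Sp9 and Meis2. The periglomerular class also includes cells with tyrosine hydroxylase (Th) or calretinin (Calb2).

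Because the study deletes the enzyme that copies methylation at CG pairs, the promoter of a member shows how many such pairs lie near its start. RefSeq windows (GRCm38.p6) were matched for 5 of the 9 genes, and 4 windows are printed here to show how unlike these promoters were. Each covers the 250 bases before a transcript start, 5′ to 3′ on the gene's strand, with every CG in capitals. They lie at chr5:37735269-37735518 on the plus strand for Cytl1, chr12:118199044-118199293 on the minus strand for Dnah11, chr11:104132531-104132780 on the plus strand for Crhr1 and chr15:89841861-89842110 on the minus strand for Syt10.
Cytl1: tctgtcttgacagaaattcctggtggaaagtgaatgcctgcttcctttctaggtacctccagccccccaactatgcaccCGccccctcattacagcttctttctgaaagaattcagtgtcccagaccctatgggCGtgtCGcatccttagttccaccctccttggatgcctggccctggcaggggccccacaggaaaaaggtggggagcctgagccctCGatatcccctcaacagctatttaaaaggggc
Dnah11: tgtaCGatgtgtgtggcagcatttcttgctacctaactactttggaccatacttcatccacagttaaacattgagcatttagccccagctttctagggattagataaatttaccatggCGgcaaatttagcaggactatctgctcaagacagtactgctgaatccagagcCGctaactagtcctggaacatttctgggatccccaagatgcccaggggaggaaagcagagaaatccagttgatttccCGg
Crhr1: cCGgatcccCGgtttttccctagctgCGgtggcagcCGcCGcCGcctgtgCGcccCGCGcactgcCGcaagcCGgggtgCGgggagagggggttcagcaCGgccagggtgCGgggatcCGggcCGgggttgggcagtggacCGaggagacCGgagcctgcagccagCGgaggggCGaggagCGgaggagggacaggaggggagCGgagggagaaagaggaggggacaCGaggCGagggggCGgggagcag
Syt10: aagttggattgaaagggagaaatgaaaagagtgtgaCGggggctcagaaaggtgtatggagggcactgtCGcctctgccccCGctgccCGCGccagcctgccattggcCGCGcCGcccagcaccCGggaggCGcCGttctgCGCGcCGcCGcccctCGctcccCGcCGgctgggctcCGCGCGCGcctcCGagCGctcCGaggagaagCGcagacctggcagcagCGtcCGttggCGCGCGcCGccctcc
Cytl1 and Dnah11 have 4 CG pairs each in these windows, below the median of 6 over all 32851 windows of that length. Crhr1 has 25 and Syt10 has 32, more than 89.3% and 95.4% of all windows respectively. The Crhr1 window ends at 104132780, short of the gene start at 104132855 in the annotation used for symbols. The ratio of observed to expected CG was 0.219 for Cytl1, 0.303 for Dnah11, 0.794 for Crhr1 and 0.989 for Syt10, against a median of 0.374. Cpne4, with 2 windows, has 13 and 1. The homeodomain core TAATTA, searched in these windows (it reads the same on both strands), was in none of the 6 member windows and in 4.84% of all windows. DNA methylation was not analysed here.

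Among the secreted proteins, Cytl1 (chromosome 5, 37735519 to 37739820, plus strand, mm10) came closest to being present in a single group. It had 84 and 93 reads in the WT libraries of 6 months, 0 and 1 in KO 6 mo, 1 and 1 in WT 18 mo, and 0 and 0 in KO 18 mo. The mean level was 14.5 ± 0.905 CPM (counts scaled to a common library size; SD, n = 2) in WT 6 mo and at most 0.101 CPM in any other group. Outside WT 6 mo every library was therefore at or next to 0. The pooled reads gave a ratio of 248 to KO 6 mo (exact 95% interval 43.9 to 9833, from 1 read) and of 152 to WT 18 mo (41.4 to 1262, from 2 reads). Such intervals cover counting error only.

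Adamts19 (chromosome 18, 58836667 to 59054060, plus strand) had 68 and 93 reads in WT 6 mo. The other libraries had 3 and 0 in KO 6 mo, 3 and 10 in WT 18 mo, and 5 and 5 in KO 18 mo. Both WT libraries of 6 months were far above the remaining 6, and the groups of 18 months overlapped. In CPM the group means were 13.2 ± 2.77, 0.172 ± 0.243, 0.573 ± 0.278 and 0.407 ± 0.0351. The ratio of WT 6 mo to KO 6 mo was 75.1, with an interval of 25.2 to 368 since the KO value rests on 3 reads.

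Of the receptors, Lgr5 (chromosome 10, 115450311 to 115587780, minus strand) had 132 and 111 reads in WT 6 mo. It had 10 and 6 reads in KO 6 mo, 11 and 27 in WT 18 mo, and 21 and 13 in KO 18 mo. Lgr5 was low but detected in every library outside WT 6 mo, where KO 18 mo overlapped both other groups. Mean levels were 19.9 ± 2.61 CPM in WT 6 mo and 0.931 ± 0.303 in KO 6 mo, then 1.73 ± 0.494 in WT 18 mo and 1.36 ± 0.341 in KO 18 mo. A gene on the opposite strand, A930009A15Rik, overlaps it and did not share the pattern, with 29, 20, 41 and 39 reads over the groups in the same order.

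Crhr1 (chromosome 11, 104132855 to 104175523, plus strand) was the least confined of the 9. It had 97 and 78 reads in WT 6 mo and still 19 and 23 in KO 6 mo, against 1 and 4 in WT 18 mo and 4 and 2 in KO 18 mo. The 3 levels did not overlap: WT 6 mo stood at 14.3 ± 2.33 CPM, KO 6 mo at 2.46 ± 0.403, and the groups of 18 months at 0.217 ± 0.129 and 0.239 ± 0.0939.

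Syt10 (chromosome 15, 89782393 to 89841860, minus strand) gave nearly equal reads in the WT libraries of 6 months, 87 and 86. KO 6 mo had 7 and 10 reads, WT 18 mo 5 and 6, and KO 18 mo 15 and 11. Its mean was 14.1 ± 0.248 CPM in WT 6 mo and 0.998 ± 0.277, 0.544 ± 0.117 and 1.05 ± 0.139 in the others. The KO groups overlapped, and Syt10 was the only member whose highest other group was KO 18 mo.

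Cntnap4 (chromosome 8, 112570043 to 112882717, plus strand) had 81 and 99 reads in WT 6 mo, 7 and 12 in KO 6 mo, 2 and 3 in WT 18 mo, and 6 and 7 in KO 18 mo. Each of the 4 groups was separate from the next, in the order WT 6 mo (14.7 ± 1.94 CPM), KO 6 mo (1.12 ± 0.446), KO 18 mo (0.531 ± 0.103) and WT 18 mo (0.241 ± 0.0140). The antisense gene Gm45904, inside Cntnap4, had 6, 0, 0 and 1 reads over WT 6 mo, KO 6 mo, WT 18 mo and KO 18 mo. The sources used here do not give the strand setting of the counting, so reads of overlapping genes cannot be assigned with certainty.

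Cpne4 (chromosome 9, 104547286 to 105034544, plus strand) had 156 and 175 reads in WT 6 mo, 17 and 24 in KO 6 mo, 7 and 13 in WT 18 mo, and 7 and 5 in KO 18 mo. The means stepped down from 27.1 ± 1.94 CPM through 2.41 ± 0.650 and 0.939 ± 0.0870 to 0.483 ± 0.0729, and no neighbouring groups overlapped.

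In the cytoskeletal group, Ablim3 (chromosome 18, 61799392 to 61911824, minus strand) had the most reads of the 9, 267 and 298 in WT 6 mo. It had 18 and 33 reads in KO 6 mo, 14 and 18 in WT 18 mo, and 9 and 17 in KO 18 mo. The level was 46.2 ± 3.15 CPM in WT 6 mo against 3.00 ± 1.33, 1.57 ± 0.262 and 1.08 ± 0.551 elsewhere, and the groups of 18 months overlapped.

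Dnah11 (chromosome 12, 117877982 to 118199043, minus strand) was the most even between libraries. It had 236 and 240 reads in WT 6 mo, 11 and 11 in KO 6 mo, 5 and 9 in WT 18 mo, and 8 and 8 in KO 18 mo. In CPM these were 38.9 ± 0.0980, 1.29 ± 0.0379, 0.660 ± 0.0466 and 0.650 ± 0.0561. Cdca7l overlaps Dnah11 on the opposite strand and had 9, 4, 3 and 2 reads over the groups in that order.

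**Figure D1:**
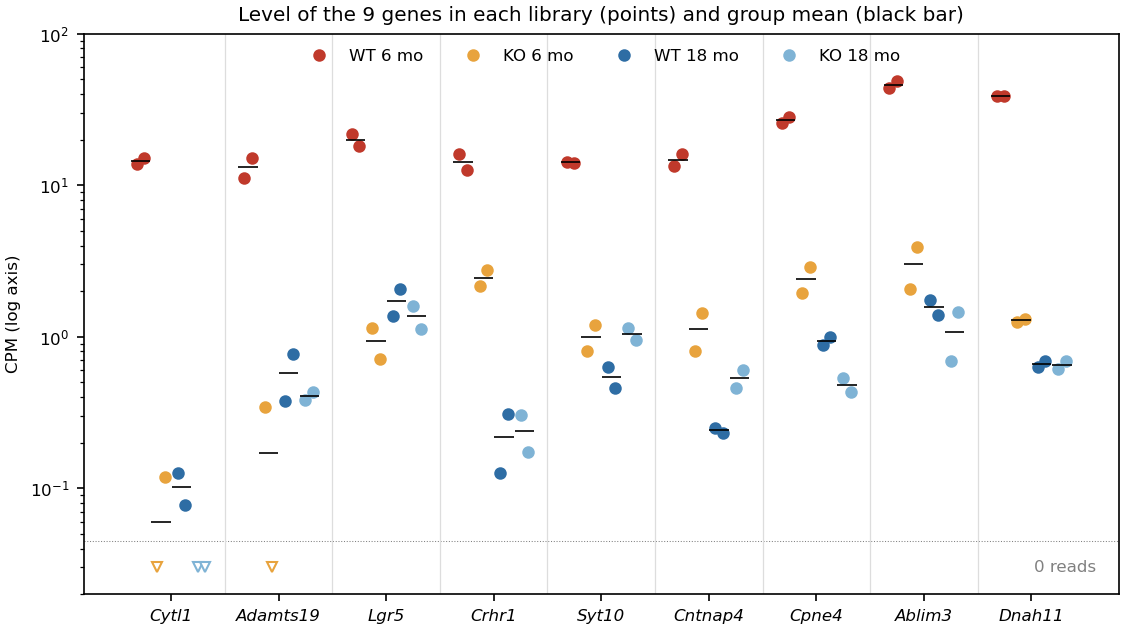
Level of each of the 9 genes in each of the 8 libraries, in CPM on a log axis, with black bars at the group means and open triangles for libraries with 0 reads. The WT libraries of 6 months lie above all 6 others for every gene, and Cytl1 is at 0 reads in 3 of the others.

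Per length, the order of the 9 genes in WT 6 mo was different from the order in CPM. As TPM (the length-scaled unit, counts divided by exon length and scaled to a common total), Cytl1 led with 43.0 ± 2.05, followed by Ablim3 with 31.9 ± 1.70, Syt10 with 24.1 ± 0.782, Crhr1 with 18.3 ± 3.25 and Cpne4 with 15.4 ± 0.878. Dnah11 followed with 8.45 ± 0.105, then Cntnap4 with 7.34 ± 0.861, Lgr5 with 6.09 ± 0.890 and Adamts19 with 2.94 ± 0.575 TPM (SD, n = 2). Crhr1 and Cpne4 differed by less than the SD of Crhr1. All other neighbours in that order differed by more than the larger of their SDs. Exons of Dnah11 and Adamts19 span 14458 and 14040 bases, against 1056 for Cytl1.

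How far each gene was confined was expressed as the mean CPM of WT 6 mo over the highest other group mean. Among the 10261 genes with at least 10 CPM in WT 6 mo, the 8 largest ratios were members: Cytl1 at 143, Dnah11 at 30.2, Adamts19 at 23.0, Ablim3 at 15.4, Syt10 at 13.5, Cntnap4 at 13.2, Lgr5 at 11.5 and Cpne4 at 11.2. Just outside stood Syt6 at 10.4 and Grm4 at 10.2. Crhr1, at 5.82, had rank 25, with 16 genes that are not members above it. The members' ratios chose them, so they are given as a description. WT 6 mo supplied from 83.1% (Crhr1) to 98.9% (Cytl1) of the sum of a member's 4 group means. The next highest group was KO 6 mo for 5 genes, WT 18 mo for 3 and KO 18 mo for 1.

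A higher level in WT 6 mo was common among all genes, but a high ratio was not. Both WT libraries of 6 months lay above all 6 others for 25.6% of the genes tested, the background to the 9 of 9 members, which were chosen for it. Of the 10261 genes, 491 had a ratio of at least 2, 61 of at least 4 and 10 of at least 10. The median ratio was 13.5 for the members and 0.922 for the 10261 genes.

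**Figure D2:**
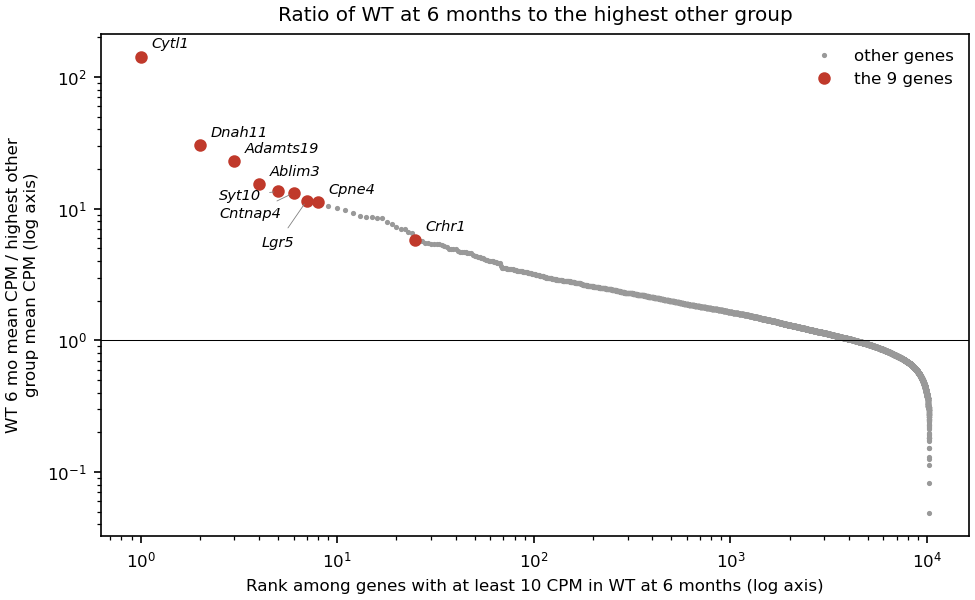
Ratio of the mean CPM in WT 6 mo to the highest other group mean, against the rank of that ratio among the 10261 genes with at least 10 CPM in WT 6 mo (both axes log). The members hold ranks 1 to 8 and rank 25 (Crhr1, 5.82), and the horizontal line marks equal levels.

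The 20 other genes with the largest ratios, clone and pseudogene names such as Gm27032 (rank 21) left out, were Syt6, Grm4, Gabra5, Kcnj4, Gad1, Myo16, Actn2, Gng4, Kcnf1, Kcnb2, Nrip3, Epha3, Slco5a1, Nos1, Frmd7, Vipr2, Scg2, Kcnh3, Kcnj6 and Lars2, from 10.4 (Syt6) to 5.41 (Lars2). Likeness here is the ratio over 4 group means of 2 libraries each. Many are neuronal: Grm4 is a glutamate receptor, Gabra5 a GABA receptor subunit, Kcnj4, Kcnf1, Kcnb2, Kcnh3 and Kcnj6 are potassium channel subunits, and Gad1 makes GABA. Grm4 stood at 45.9 CPM in WT 6 mo and 4.51, 1.71 and 1.27 CPM in KO 6 mo, WT 18 mo and KO 18 mo. Kcnj4 was at 34.8, 3.75, 0.818 and 0.368 CPM in that order.

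Comparisons without the WT libraries of 6 months leave out the group in which the genes are high. The genes were also chosen for low levels in the other groups, so these comparisons are not free of the choice. Counts below are over the 6 members that pass the filter on low counts without WT 6 mo (Lgr5, Crhr1, Syt10, Cpne4, Ablim3 and Dnah11). Between KO and WT at 18 months 0 of the 6 passed the threshold in edgeR's quasi-likelihood test (adjusted p under 0.05, where 32.1% of all genes tested passed). At an unadjusted p under 0.05 the count was also 0, and DESeq2 called 0 of the 6. The estimates, as log2 fold changes of KO over WT, ran from -0.95 for Cpne4 (95% interval -1.97 to 0.07, adjusted p = 0.147 in edgeR) to 0.98 for Syt10 (-0.03 to 1.99, adjusted p = 0.131). Syt10 had 15 and 11 reads in KO against 5 and 6 in WT. With so few reads, the intervals reach past a 2-fold difference in at least 1 direction for each of the 6. The libraries of KO and WT did not overlap for Syt10 and Cpne4, which is 2 of 6, where 66.6% of all genes tested did not overlap. Cntnap4, which passed the filter through WT 6 mo alone, was at 1.10 (-0.34 to 2.54).

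Between 18 and 6 months within KO, 3 of the 6 members fell (17.9% of all genes tested were lower). Crhr1, the stress peptide receptor, fell by 3.27 on the log2 scale (SE 0.509, adjusted p = 2.53e-05 in edgeR), from 19 and 23 reads to 4 and 2. Cpne4 fell by 2.27 (SE 0.416, adjusted p = 0.000175 in edgeR) from 17 and 24 reads to 7 and 5. Ablim3 fell by 1.49 (SE 0.378, adjusted p = 0.00392 in edgeR) from 18 and 33 reads to 9 and 17. The libraries of 6 and 18 months did not overlap for these 3, nor for Dnah11, which is 4 of 6, where 67.3% of all genes tested did not overlap. The call for Ablim3 rested on single libraries: without KO replicate 2 of 6 months the change was -0.95 (adjusted p = 0.183 in edgeR), and without KO replicate 1 of 18 months it was -1.01 (adjusted p = 0.0879). The calls for Crhr1 and Cpne4 held without any 1 library, and all 3 held in a fit without the WT group of 6 months (adjusted p = 7.91e-05, 0.000574 and 0.00878 in edgeR for Crhr1, Cpne4 and Ablim3).

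The other 3 of the 6 did not pass. Dnah11 was at -0.97 (95% interval -1.86 to -0.09, adjusted p = 0.0931 in edgeR), Syt10 at 0.08 (-0.84 to 1.00, adjusted p = 0.916) and Lgr5 at 0.55 (-0.37 to 1.47, adjusted p = 0.374). Adamts19 and Cntnap4, which passed the filter through WT 6 mo alone, were at 1.15 (-0.76 to 3.06) and -1.06 (-2.12 to 0.01). Markers of neurons in general moved in this comparison too: 9 of 10 were lower at 18 months in KO, with a median log2 fold change of -1.85, and their part in the 3 calls was not tested. This comparison shares the KO libraries of 18 months with the comparison of genotypes at 18 months.

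The comparisons that do use WT 6 mo gave the following values for the members, which share those libraries and are not independent of each other. KO against WT at 6 months ran from -2.54 for Crhr1 to -7.66 for Cytl1 on the log2 scale, and 18 against 6 months in WT ran from -3.46 for Lgr5 to -7.06 for Cytl1. Crhr1 stood at -2.54 by genotype and -5.83 by age, and Adamts19 at -6.13 and -4.39. All 9 members were among the genes lower in both, where 19.6% of the genes tested were lower in KO 6 mo and 30.8% lower at 18 months in WT. Libraries did not overlap for any member in either comparison, where 66.8% and 77.4% of all genes tested did not overlap. The choice of the members fixed those directions.

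Marker lists of brain regions and cell types were set beside the members, which were left out of every list. The lists were chosen with earlier results of these data in view, so their counts are a description. Genes near 0 outside WT 6 mo could pass the filter on low counts through that group alone. Over all genes tested, 19.6% were lower and 19.2% higher in KO 6 mo, the background to each count of that comparison below. For 18 against 6 months the shares were 30.8% lower and 28.2% higher in WT, and 17.9% and 13.8% in KO. The list for granule and periglomerular neurons of the olfactory bulb was lower in KO 6 mo for 12 of its 13 tested genes, with Etv1 higher (38.8% of all genes tested were called in either direction). Its median log2 fold change was -1.20, against -0.00 over all genes tested. Between 18 and 6 months in WT 11 of the 13 were lower and Etv1 was higher (59% of all genes called). Of these 13 genes, 5 (38.5%) had a ratio of WT 6 mo to the highest other group of at least 4, where 0.629% of the 18606 genes with 20 reads in a group did. A ratio of at least 2 was reached by 7 of the 13, against 4.89% of those genes.

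Those 5 were Sp8, Sp9, Th, Scgn and Calb2, of which Scgn encodes the calcium-binding protein secretagogin. Sp8 had 44 and 61 reads in WT 6 mo and 7, 4, 2, 4, 2 and 2 in the others. It was lower in KO 6 mo (log2 fold change -3.71, adjusted p = 5.99e-08 in edgeR). Sp9 had 47 and 55 reads in WT 6 mo against 0 to 8 elsewhere (log2 fold change -3.33, adjusted p = 1.46e-06 in edgeR). Th had 35 and 33 reads against 0 to 6 (adjusted p = 1.1e-06 in edgeR), and Scgn 11 and 10 against 0 to 2 (adjusted p = 0.000116 in edgeR). With at most 8 reads in any other library, Sp8, Sp9, Th and Scgn passed the filter on low counts through WT 6 mo. Their p-values are therefore a description. Calb2 had 54 and 93 reads in WT 6 mo and 14 to 55 elsewhere, with levels of 12 ± 4.40, 2.75 ± 0.494, 2.99 ± 1.75 and 1.66 ± 0.0286 CPM in WT 6 mo, KO 6 mo, WT 18 mo and KO 18 mo. Reads of Calb2 in WT 18 mo differed between libraries, 14 and 55.

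The same list was not confined to WT 6 mo. Meis2, with the smallest p of the list, was at 164 ± 22.4 CPM in WT 6 mo and at 71.4 ± 3.68, 46.4 ± 1.54 and 67.8 ± 0.796 CPM in the others. Summed over the 14 listed genes the level was 591 to 630 CPM in WT 6 mo, 363 to 374 in KO 6 mo, 313 to 351 in WT 18 mo and 399 to 416 in KO 18 mo, with no listed gene at 0 reads in WT 6 mo. In the comparisons that leave out WT 6 mo, 4 of 13 were higher and 0 lower in KO 18 mo, and 2 were higher and 2 lower between 18 and 6 months in KO. Both shares called, 30.8%, were near the 32.1% and 31.7% of all genes tested. The 13 include Sp8, Sp9, Th and Scgn, whose few reads in these groups limit what could be called. The shares therefore do not show that the list was at the background.

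Markers of the projection neurons of the bulb had low levels. Summed over the mitral and tufted list the mean was 33.8 CPM in WT 6 mo, 21.5 in KO 6 mo, 16.6 in WT 18 mo and 18.2 in KO 18 mo. The ratios of WT 6 mo to the others, 1.57, 2.03 and 1.86, were near those of the granule and periglomerular list, 1.65, 1.84 and 1.50. Of 11 genes for mitral and tufted cells 6 could be tested. Of 6 genes of the list with 20 reads in a group, 5 were highest in WT 6 mo, where 37.3% of all such genes were. Among the 6 tested genes, Ntng1 and Doc2g were lower in KO 6 mo and 0 higher, a count of 2. That is 33.3%, where 19.6% of all genes tested were lower and 38.8% were called in either direction. Without WT replicate 2, or without either KO replicate, of 6 months that count was 1. The defining factors Tbx21 and Eomes and the cadherin Cdhr1 had 1, 5 and 9 reads over the WT libraries of 6 months. Summed levels of olfactory ensheathing glia overlapped between 3 of the groups, at 43.5 to 55.3 CPM in WT 6 mo and 46.3 to 48.8 in KO 6 mo, 47.5 to 49.6 in WT 18 mo and 34.8 to 38.3 in KO 18 mo. Of the 5 glial genes of that list that could be tested, 3 were lower and 1 (Ngfr) was higher in KO 6 mo.

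Genes of GABA neurons in general, many of them shared by bulb, striatal and cortical cells, were lower in KO 6 mo for 9 of 11 genes and higher for 1. Gad1, which makes GABA, had 758 and 815 reads in WT 6 mo, 126 and 126 in KO 6 mo, 91 and 180 in WT 18 mo, and 90 and 70 in KO 18 mo. Its mean was 129 ± 5.39 CPM in WT 6 mo and 14.7 ± 0.434 in KO 6 mo (log2 fold change -3.12, adjusted p = 7.96e-16 in edgeR). Slc32a1, the vesicular GABA transporter, stood at 12 ± 0.697, 2.35 ± 0.565, 0.477 ± 0.566 and 0.282 ± 0.0329 CPM, and the homeobox gene Dlx1 at 22.2 ± 1.02, 6.66 ± 0.300, 1.79 ± 0.132 and 1.29 ± 0.118. Both were lower in KO 6 mo (adjusted p = 2.7e-06 and 3.63e-08 in edgeR). Between 18 and 6 months in KO 7 of the 11 fell and 1 rose.

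Defining genes of parvalbumin cells, which the labels name, and of the related somatostatin cells were nearly absent. Pvalb had 0 and 1 reads, Sst 1 and 3, and Lhx6, the factor shared by both classes, 0 and 1 in the WT libraries of 6 months. Among 13 tested genes of cortical interneurons 7 were lower and 1 (Vip) was higher in KO 6 mo. Nos1, the neuronal nitric oxide synthase, had a ratio of 6.65 and Vipr2, a receptor for the peptide VIP, of 5.71, and no other gene of that list reached 4. Summed over the 20 listed genes, the mean was 362 CPM in WT 6 mo. KO 6 mo, WT 18 mo and KO 18 mo had 170, 125 and 123 CPM. The ratios of WT 6 mo to these, 2.12, 2.90 and 2.93, were above those of the granule and periglomerular list. Of 13 genes with 20 reads in a group, 9 were highest in WT 6 mo, where 37.3% of all such genes were. A ratio of at least 2 was reached by 6 of the 13, against 4.89%.

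Neuroblasts of the migratory stream, which carries new cells to the bulb, had 6 of 13 genes lower and 0 higher in KO 6 mo. Dcx, the microtubule protein of migrating neurons, was at 25.0, 10.2, 6.06 and 4.29 CPM, and Sox11 at 32.7, 18.2, 9.72 and 13.7 CPM, in WT 6 mo, KO 6 mo, WT 18 mo and KO 18 mo. Between 18 and 6 months in KO 12 of the 13 were lower. The list shares Dlx1, Dlx2, Dlx5 and Dlx6os1 with the genes of GABA neurons.

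Hippocampal principal neurons gave the only other regional list with 3 genes at a ratio of 4 or more. C1ql2, Dsp and Lct were at 11.3 ± 0.819, 6.86 ± 1.09 and 5.47 ± 0.989 CPM in WT 6 mo and at 2.28 ± 0.181, 0.649 ± 0.432 and 0.289 ± 0.239 CPM in KO 6 mo. All 3 were lower in KO (adjusted p = 3.44e-07, 1.73e-06 and 7.98e-07 in edgeR). Prox1, a factor of dentate granule cells, went the opposite way, from 71.0 ± 8.30 CPM in WT 6 mo to 169 ± 4.02 in KO 6 mo, 260 ± 20.6 in WT 18 mo and 186 ± 0.711 in KO 18 mo. Summed over the 8 genes of the list the level was lowest in WT 6 mo. The means were 162, 220, 296 and 230 CPM in WT 6 mo, KO 6 mo, WT 18 mo and KO 18 mo. Prox1 alone gave 71.0, 169, 260 and 186 CPM of these, and the order of the sums followed it. The summed level of oligodendrocyte genes was likewise lowest in WT 6 mo and highest in WT 18 mo. Which cells gave the Prox1 reads was not tested. By gene, 5 of the 7 with enough reads for a ratio were highest in WT 6 mo, where 37.3% of all such genes were. Spink8, a gene of CA1, had 0 reads in WT 6 mo, and 5 of the 7 tested genes were lower and 1 was higher in KO 6 mo.

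Other regions were mixed in KO 6 mo. The list for striatal medium spiny neurons had 2 genes higher and 2 lower of 10 in KO 6 mo, and 6 lower and 0 higher between 18 and 6 months in WT (median log2 fold change -1.17). The share of striatal genes called in KO 6 mo, 40%, was near the 38.8% of all genes tested. Drd2, a dopamine receptor, had 1 and 1 reads in WT 6 mo against 19 and 16 in KO 6 mo, and Penk, the enkephalin precursor, was at 26.6 ± 0.907 CPM in WT 6 mo and 7.92 ± 1.97 in KO 6 mo. For cortical excitatory neurons 6 of 13 were lower and 1 was higher, with a median of -0.07, and the count of lower genes was 3 without KO replicate 1 of 6 months. Between 18 and 6 months in WT 12 of these 13 were lower and 0 higher, with a median of -1.39, where 30.8% of all genes tested were lower. Slc17a7, the vesicular glutamate transporter of these cells, was at 17.7 ± 3.17 CPM in WT 6 mo and 21.8 ± 2.46 in KO 6 mo (adjusted p = 0.149 in edgeR), and Bcl11b was the only gene of that list with a ratio of at least 4.

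In lists of more distant regions, Gbx2 (1 of 7 thalamic genes) and Gabra6 (1 of 10 cerebellar genes) were at 0 reads in WT 6 mo, as were Ccdc153 of ependymal cells, 7 of 12 hypothalamic genes, Avp and Oxt among them, and 7 of 12 monoamine genes. Of all 55564 genes that are not members, 29144 were at 0 reads in WT 6 mo. Gbx2, Gabra6, 3 of the hypothalamic and 6 of the monoamine genes were at 0 in all libraries, so their absence was not particular to WT 6 mo. The summed thalamic list was nevertheless highest in WT 6 mo, at 104 CPM against 93.0, 53.9 and 84.7 in KO 6 mo, WT 18 mo and KO 18 mo. So was the cerebellar list, at 98.0 CPM against 87.7, 54.9 and 77.5. Trh, the thyrotropin-releasing hormone, was the exception among hypothalamic genes, with 12 and 17 reads in WT 6 mo and 0 to 3 elsewhere. Foxj1, the master factor of motile cilia, was at 12.1 ± 2.19 CPM in WT 6 mo and 22.2 ± 4.29 in KO 6 mo and at 24.0 ± 0.729 and 12.1 ± 2.76 in WT 18 mo and KO 18 mo. It did not follow Dnah11, whose dynein works in such cilia. In meningeal fibroblasts 3 of 6 genes were lower in KO 6 mo, Dcn, Lum and Col1a1, and 1 was higher.

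**Figure D3:**
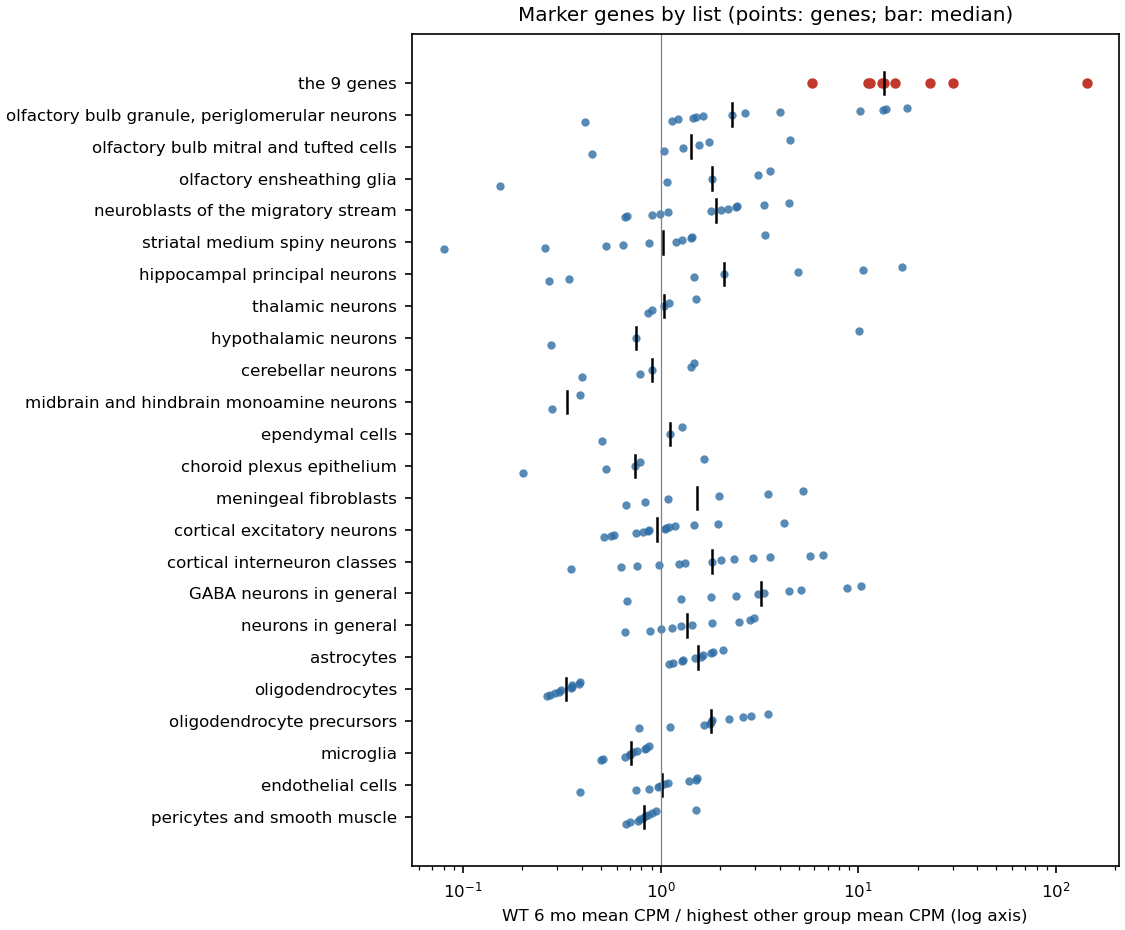
Ratio of the mean CPM in WT 6 mo to the highest other group mean (log axis) for the genes of each marker list with at least 20 reads in a group; blue points are genes, red points the 9 members, and black bars medians. The bulb granule and periglomerular list has 5 genes at 4 or more, GABA neurons 4 and hippocampal neurons 3, and oligodendrocyte genes all lie below 1.

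The summed level of general neuronal markers was also highest in WT 6 mo. Summed over 10 genes of neurons in general the level was 834 to 866 CPM there, 503 to 535 in KO 6 mo, 361 to 364 in WT 18 mo and 357 to 367 in KO 18 mo. In KO 6 mo 5 of the 10 were lower and 0 higher, and their median ratio of WT 6 mo to the highest other group was 1.36, with no gene at 4 or more. The members, the bulb genes, the GABA genes, astrocyte genes (10 of 10 lower in KO 6 mo) and oligodendrocyte genes (10 of 10 higher) all separated the same pool from the rest. What part any of these cell types had in the level of the 9 genes was not tested. With what is taken here as 1 pool in each group, the cell makeup of the pool and its age and genotype cannot be told apart. Most markers of bulb granule and periglomerular neurons and of GABA neurons were higher together with the 9 genes, as were C1ql2, Dsp and Lct, and each of these lists had reads in the other 3 groups too. Prox1, of the same list as C1ql2, was lowest in WT 6 mo, as was the summed level of oligodendrocyte genes. Among genes with 20 reads in a group, 9 of 13 of cortical interneurons were also highest in WT 6 mo. The same held for 9 of 10 of oligodendrocyte precursors, 10 of 10 of astrocytes and 8 of 10 of neurons in general. The share over all such genes was 37.3%.

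**Figure D4:**
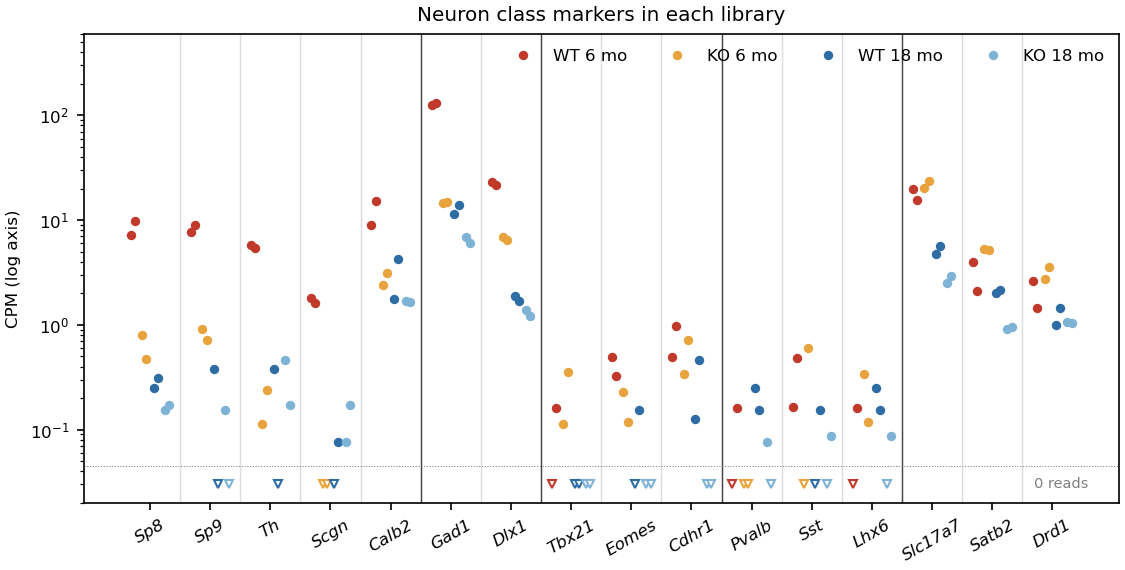
Levels in each library (CPM, log axis; open triangles, 0 reads) of markers of bulb granule and periglomerular neurons (Sp8 to Calb2), GABA neurons (Gad1, Dlx1), bulb mitral cells (Tbx21 to Cdhr1), cortical interneurons (Pvalb to Lhx6) and other neurons (Slc17a7 to Drd1). Sp8, Sp9, Th and Scgn are highest in both WT libraries of 6 months, and Tbx21, Pvalb and Lhx6 are at or near 0 in all libraries.

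Relatives of the members were examined to see whether whole families shared the pattern. Counts of lower and higher relatives stand against 19.6% lower and 19.2% higher of all genes tested in KO 6 mo. Around Lgr5, 11 of 20 tested genes of the R-spondin receptors, their ligands and Wnt partners were lower and 2 higher in KO 6 mo, and none had a ratio of 4 or more. Lgr6, the closest in pattern of the sister receptors, was at 79.3 ± 0.182 CPM in WT 6 mo and 28.2 ± 0.905 in KO 6 mo and at 17.2 ± 0.782 in WT 18 mo and 50.2 ± 0.265 in KO 18 mo. At 18 months Lgr6 was higher in KO than in WT (log2 fold change 1.53, adjusted p = 1.7e-11 in edgeR), with Lgr5 at 1.36 and 1.73 CPM in KO and WT. The Wnt receptors Fzd2 and Fzd1 were lower too (log2 fold changes -1.11 and -1.14, adjusted p = 1.66e-10 and 4.32e-10 in edgeR). Axin2, a target of Wnt signalling, went from 63.4 ± 4.64 to 44.9 ± 1.65 CPM between WT 6 mo and KO 6 mo (adjusted p = 0.000131 in edgeR).

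Around Crhr1, only Crhbp, which encodes the binding protein of the hormone, had enough reads to test. It had 10 and 11 reads in WT 6 mo, 1 and 0 in KO 6 mo, 1 and 0 in WT 18 mo, and 0 and 0 in KO 18 mo. Crhbp was lower in KO 6 mo (adjusted p = 0.000602 in edgeR). With at most 1 read in any other library, it passed the filter on low counts through WT 6 mo. The hormone itself (Crh) had 2 and 9 reads in WT 6 mo and 2 and 8 in KO 6 mo, Crhr2 had 5 and 7 against 7 and 9, and Ucn and Ucn3 were at 0 throughout.

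Among 15 other synaptotagmins 8 were lower and 2 higher in KO 6 mo. Syt6 came nearest to Syt10, with 192 and 270 reads in WT 6 mo and 31 and 31 in KO 6 mo, 20 and 33 in WT 18 mo and 25 and 31 in KO 18 mo (log2 fold change at 6 months -3.38, adjusted p = 3.76e-12 in edgeR). Syt1, the main sensor for fast release, was at 108, 38.4, 11.1 and 5.16 CPM over WT 6 mo, KO 6 mo, WT 18 mo and KO 18 mo. Syt11 and Syt9 were the 2 that were higher in KO.

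Contactins and their partners, the family of Cntnap4, had 5 of 12 lower and 2 higher. Cntnap3 was at 2.70 ± 0.372 CPM in WT 6 mo and 0.475 ± 0.510 in KO 6 mo (adjusted p = 0.00169 in edgeR), and Cntn2, an adhesion protein of myelinated axons, was higher in KO. The copines had 4 of 8 lower and 0 higher. Cpne6, a copine of hippocampal and cortical neurons, was at 64.1 ± 8.76, 12 ± 1.84, 3.67 ± 0.580 and 1.57 ± 0.708 CPM, and Cpne7 at 22.5 ± 4.07, 6.78 ± 0.131, 1.65 ± 0.385 and 0.694 ± 0.117 CPM. Both stepped down in the same order as Cpne4, with WT 6 mo highest, then KO 6 mo, WT 18 mo and KO 18 mo.

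Relatives of the remaining members mostly lacked the pattern. Ablim1, a relative of Ablim3, stood at 72.4 ± 6.26 CPM in WT 6 mo and 62.6 ± 6.14 in KO 6 mo (adjusted p = 0.0848 in edgeR), a ratio of 1.16 to the highest other group. Of 16 other ADAMTS proteases 6 were lower and 4 higher, Adamts3 being at 18.5 ± 3.41 CPM in WT 6 mo and 7.62 ± 1.55 in KO 6 mo. Of 12 other axonemal dynein heavy chains 4 were lower and 1 higher, and Dnah2 had the largest ratio, 3.51, with 11.1 ± 0.104 CPM in WT 6 mo and 3.17 ± 1.09 in KO 6 mo. The share of dyneins called, 41.7%, was near the 38.8% of all genes tested. In both the protease and the dynein family the tested relatives had lower ratios than the member.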

How the data were processed

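The members and the marker and family lists were chosen with earlier results of these data known. RNA-seq reads from 8 libraries had been counted per gene by the authors, who deposited raw counts for 55573 Ensembl IDs on mm10, with the tools STAR 2.5.2a, featureCounts 1.5.0-p1 and CASAVA 1.8.2 named in the submitters' processing notes. The sources used here do not give the annotation, strand and multimapping settings. Symbols and exon lengths came from a GENCODE annotation (99.8% of IDs).

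The 4 groups were fitted together in edgeR 4.0.16 (R 4.3.3; quasi-likelihood test; TMM; a minimum count of 10 in filterByExpr; Benjamini-Hochberg adjustment over 18205 genes, threshold 0.05), a method tested on simulated data. Common biological coefficient of variation was 0.0539 with 4 residual degrees of freedom. CPM uses the TMM-adjusted totals. DESeq2 1.42.0, other scalings, no filter, a replicate block and leaving out each library were alternatives.

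Genes named were the 9 members, up to 4 relatives or markers a list by smallest p with markers at 0 or needed for a count, and the 20 genes with the largest ratio of WT at 6 months to the highest other group at 10 CPM or more, clone and pseudogene names left out. Markers named beyond these were chosen after their values were seen.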

Additional observations from a re-analysis of the deposited data

Results flagged for a closer look

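For 3 members the estimate in a comparison without WT at 6 months had the opposite sign to the estimate in the matching comparison with it, every library moving that way; in each case the difference between the estimates was not tested, and the estimate without WT at 6 months did not pass the threshold in edgeR. Adamts19 was at -4.39 on the log2 scale for 18 against 6 months in WT and at 1.15 in KO. Syt10 was at -3.81 for KO against WT at 6 months and at 0.98 at 18 months. Cntnap4 was at -3.71 at 6 months and at 1.10 at 18 months. The sign with WT at 6 months was fixed by the choice of the members, so the opposite sign says no more than the sign of an estimate that did not pass. Adamts19 and Cntnap4 passed the filter on low counts through WT at 6 months alone. The KO value of Adamts19 at 6 months rests on 3 reads, and the WT value of Cntnap4 at 18 months on 5.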

How the results depend on the processing

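No member changed direction under any alternative run in the 2 comparisons that use WT at 6 months. With DESeq2 the genes called numbered 3846 in place of 5844 for KO against WT at 18 months and 3449 in place of 5775 for 18 against 6 months in KO, the mitral and tufted genes lower in KO at 6 months 1 in place of 2, and the cortical excitatory genes 3 in place of 6. Leaving out each library in turn gave 3737 to 6355 and 3255 to 6285 genes called in those comparisons (3737 without WT replicate 2 of 18 months, 3255 without KO replicate 2 of 6 months and 3540 without KO replicate 1 of 18 months), 1 to 3 mitral and tufted genes, 3 to 6 cortical excitatory genes, and a median ratio of the members of 11.7 to 18.3. It also turned the sign of estimates that had not passed: for KO against WT at 18 months the ranges were -0.90 to 0.12 for Adamts19, -0.67 to 0.0162 for Lgr5, -0.43 to 0.90 for Crhr1 and -0.12 to 0.0674 for Dnah11, and for 18 against 6 months in KO -0.18 to 0.39 for Syt10. Ablim3 ranged from -2.09 to -0.95 there. The causes were not tested beyond the smaller number of libraries. Where a lone library was left in a group, it was assumed to vary like the other groups. The summed level of ensheathing glia in WT at 6 against 18 months turned to -0.000283 on the log2 scale with the DESeq2 scaling, and that of endothelial cells in WT against KO at 6 months to 0.0113 with plain totals. Plain totals shifted all log2 fold changes of KO against WT at 18 months by 0.14. Same-numbered libraries deviated together little (correlations 0.0045 to 0.110). Counting noise lowers such correlations, so they cannot exclude pairing, and the main fit used none. A replicate block raised the genes called from 7067 to 7421 for KO against WT at 6 months and from 10748 to 11005 for age in WT. For KO against WT at 18 months the count went from 5844 to 6322, and for age in KO from 5775 to 6301. With few reads outside WT at 6 months, depth limits every comparison among the other groups.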
